A study of Mus musculus with 9 samples.

Results

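The 10 genes described here are regulators of MAP kinase (MAPK) signaling that restrain it or, as Map3k8 and Gadd45b can, promote it, and that stimulated cells make as part of the response to the same kinases. They were picked by gene symbol, namely Dusp1, Dusp2, Dusp4, Dusp5, Dusp6, Dusp16, Spry2, Spred1, Map3k8 and Gadd45b, and all 10 were found among the 54532 genes measured. RNA-seq was performed in 9 libraries of RAW264.7 cells, a mouse macrophage line. The 3 control libraries came from untreated cells, the 3 LPS libraries from cells given LPS at 1 μg/ml for 6 h, and the 3 LPS + G-CDs libraries from cells given the same LPS together with G-CDs at 400 μg/ml for 6 h. LPS is a cell wall component of Gram-negative bacteria, and G-CDs are carbon dots prepared from the medicinal plant Glycyrrhiza. All groups were labelled wild type, and no group received G-CDs alone, so every effect of G-CDs below was measured on top of LPS. The sample titles name G-CDs in the last group, whereas its treatment label gives LPS only. The labels also give ascites as the source, while the cells are a line grown in culture.

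MAPKs (ERK, JNK and p38) are activated by relays of kinases in which a MAP3 kinase phosphorylates a MAP2 kinase, which phosphorylates the MAPK. In macrophages, LPS starts these relays through its receptor TLR4, and they drive the production of cytokines. Dual-specificity phosphatases (the Dusp genes) remove the activating phosphates from MAPKs, Sprouty and Spred proteins restrain Ras and Raf upstream of ERK, and several of these genes are themselves induced by MAPK activity, which makes them a negative feedback.

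Levels are given as FPKM, the fragments counted on a gene divided by its length and by the library size, so that genes of different length can be compared. Per library, 14752400 to 17312255 reads fell on genes. The genes used to check the LPS label (Il6, Tnf, Il1b, Nos2 and Ptgs2) were all higher in the LPS libraries, with Tnf at a mean of 53.3 FPKM in control and 2512 FPKM in LPS. Of 8 macrophage markers all but Mertk, which was listed at 0 in all 9 libraries, were above 1 FPKM in every group, and their summed level ranged from 2627 to 3602 FPKM in control, from 3821 to 4036 FPKM in LPS and from 3198 to 5284 FPKM in LPS + G-CDs. The 15 markers of other cell types summed to at most 1.28, 1.59 and 2.92 FPKM in these groups, and S100a8 alone reached 1 FPKM. The median replicate SD of a gene on the log2 scale was 0.244 in control, 0.0867 in LPS and 0.259 in LPS + G-CDs. The labels do not say whether replicates were separate cultures, so p-values measure only the spread between these libraries.

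The stretch before the start of a gene carries much of the sequence through which it is switched on, and 8 of the 10 genes had an entry in the promoter table from RefSeq (GRCm38.p6), Dusp4 and Map3k8 being the others. The sequences below belong to 4 members that differed widely in their response to LPS, and they end at the base before the gene as annotated for these data. Capitals mark every match to the cyclic AMP response element (CRE) TGACGTCA or its core TGACG, to the E-box CACGTG and to the SRF-binding CArG box, on either strand.
Dusp1, chr17:26508520-26508722, minus strand: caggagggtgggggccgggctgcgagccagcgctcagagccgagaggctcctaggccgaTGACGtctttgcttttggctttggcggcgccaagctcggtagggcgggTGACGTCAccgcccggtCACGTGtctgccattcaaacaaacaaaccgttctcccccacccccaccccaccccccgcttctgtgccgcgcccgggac
Dusp2, chr2:127335909-127336158, plus strand: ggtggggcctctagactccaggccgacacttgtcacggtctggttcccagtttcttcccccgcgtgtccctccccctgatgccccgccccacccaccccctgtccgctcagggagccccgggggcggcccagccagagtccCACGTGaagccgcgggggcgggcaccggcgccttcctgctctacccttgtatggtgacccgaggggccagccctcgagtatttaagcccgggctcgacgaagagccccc
Dusp5, chr19:53528895-53529108, plus strand: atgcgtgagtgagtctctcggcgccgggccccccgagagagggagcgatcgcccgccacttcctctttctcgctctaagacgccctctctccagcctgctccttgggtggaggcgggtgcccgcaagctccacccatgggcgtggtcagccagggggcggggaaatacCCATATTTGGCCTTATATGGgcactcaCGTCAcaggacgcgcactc
Gadd45b, chr10:80929841-80930072, plus strand: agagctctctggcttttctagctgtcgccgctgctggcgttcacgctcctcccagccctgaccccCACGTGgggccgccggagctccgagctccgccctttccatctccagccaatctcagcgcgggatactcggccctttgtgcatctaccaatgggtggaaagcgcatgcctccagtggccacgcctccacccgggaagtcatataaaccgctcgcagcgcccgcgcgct

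Positions are counted from the RefSeq start of transcription, upstream being negative, and the search covered 250 bases. Dusp1 held a full CRE at -143, which contains the core on both strands, a further core at -191 and an E-box at -126. Dusp5 held 2 CArG boxes side by side at -82 and -72 and a CRE core on the opposite strand at -55, a stretch that also lies within an antisense gene of GENCODE on the minus strand. Dusp2 and Gadd45b each held an E-box, at -109 and -185, and Dusp16 held a CRE core at -70. Among 32817 mouse promoters of the same length, a full CRE was found in 1.55%, the core in 17.8%, the E-box in 6.02% and a CArG box in 1.47%. The AP-1 site TGANTCA (6.75% of all promoters), the ETS site CCGGAAGT (2.88%) and the NF-kB site (7.25%) were found in 0 of the 8. These are matches of letters in a short window, and the binding of a factor was not measured.

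**Figure D1:**
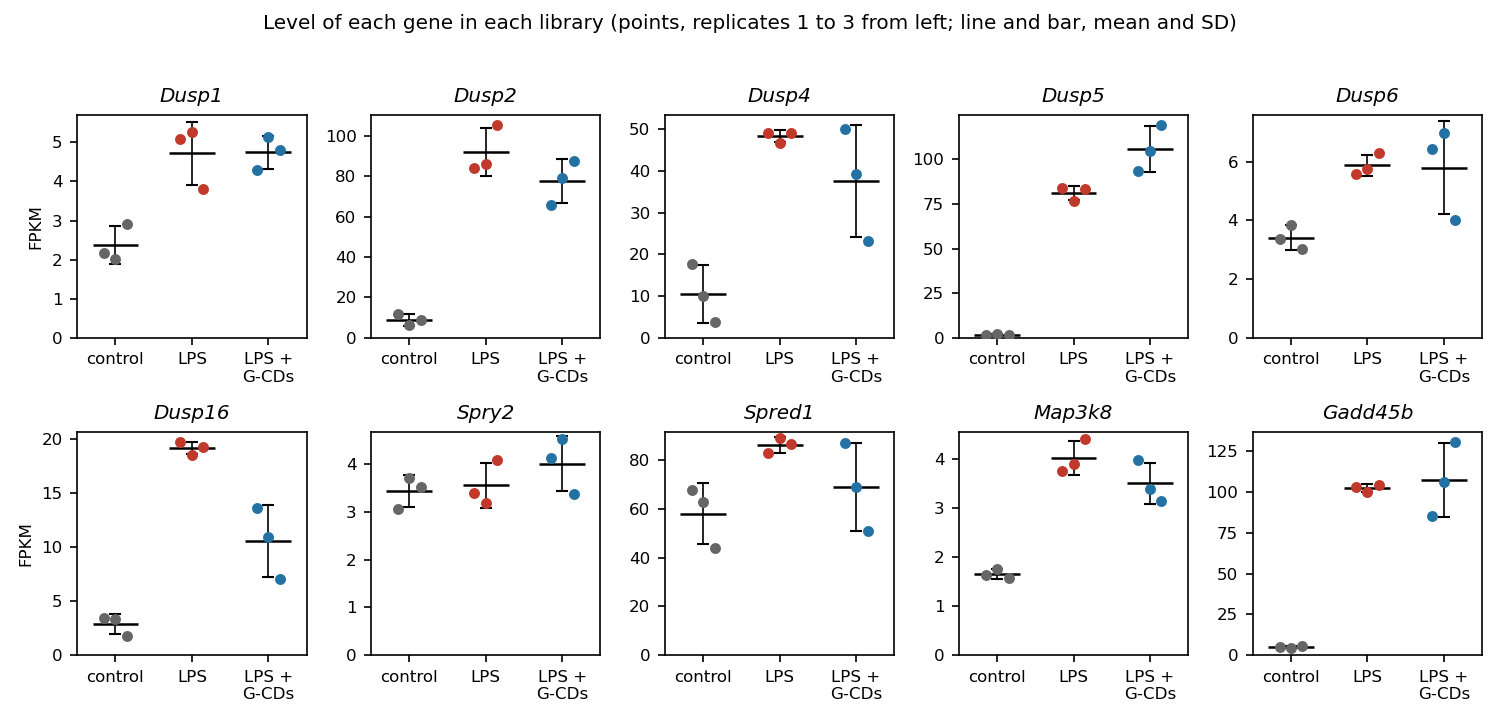
Level of each of the 10 genes in FPKM (y axis, linear from 0, own scale per gene) in every library of the 3 groups (x axis). Points are replicates 1 to 3 from left to right, the line is the mean and the bar is the SD. Dusp5 and Gadd45b sit below 6 FPKM in every control library and above 76 FPKM in every LPS library, whereas the points of Spry2 overlap in all groups.

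The comparison of LPS with control asked which of the feedback genes the inflammatory stimulus changed. With LPS, 8 of the 10 were called higher and 0 lower (limma on log2(FPKM + 1), Benjamini-Hochberg adjusted p under 0.05). Of the 11585 genes tested, 15.8% were called higher. The members were chosen with earlier results of these data known, so their counts and median beside those of all genes are only a description. Voom on the reads recovered from the FPKM values and 21 further alternative analyses called 7 to 9. Apart from Spry2, 9 members had every LPS library above every control library, which held for 27.4% of all genes tested. The median log2 fold change of the members was 1.61, beside 0.02 for all genes tested. Because 1 is added before the log2, fold changes of genes at low FPKM come out smaller than they are. In bulk RNA, a change in the share of cells that make a transcript and a change in the amount per cell cannot be told apart.

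Dusp5, a nuclear phosphatase for ERK, had the largest log2 fold change of the 10. The gene lies at chr19:53529109-53542431 on the plus strand of GRCm38, the build of all positions given here. It measured 1.90, 2.23 and 1.57 FPKM in control replicates 1 to 3, 83.8, 76.8 and 83.2 FPKM in LPS and 93.5, 105 and 119 FPKM in LPS + G-CDs. All treated libraries lay far above control, and the 3 groups did not overlap. The mean was 42.8-fold higher with LPS than in control, and the log2 fold change was 4.83 ± 0.13 (SE, limma adjusted p = 2.7e-08). The library kit does not keep the strand, and 20.5% of the 50-base words of the Dusp5 transcript also occur in the antisense gene at its start, so some of its reads could come from that gene. The other 9 members shared 0.0% of such words with another gene.

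Gadd45b encodes a stress protein that binds kinases of the p38 and JNK relays, and lies at chr10:80930073-80932204 on the plus strand. Its levels were 5.03, 4.18 and 5.62 FPKM in control, 102.9, 100.1 and 104.5 FPKM in LPS and 85.2, 106 and 131 FPKM in LPS + G-CDs. The LPS libraries were close together and above every control library, and the LPS + G-CDs libraries lay on both sides of them. The mean rose 20.7-fold with LPS (log2 fold change 4.13 ± 0.17, SE, limma adjusted p = 3.2e-07).

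Dusp2 (chr2:127336159-127338376, plus strand), a nuclear phosphatase of activated immune cells, measured 11.9, 6.16 and 8.66 FPKM in control, 84.0, 86.0 and 105 FPKM in LPS and 65.7, 79.3 and 87.4 FPKM in LPS + G-CDs. Control stood apart from both treated groups, which overlapped each other. The rise with LPS was 10.3-fold in the mean (log2 fold change 3.26 ± 0.22, SE, limma adjusted p = 7.7e-06).

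Dusp16 (chr6:134715468-134792625, minus strand), which acts on JNK and p38, measured 3.42, 3.34 and 1.77 FPKM in control, 19.7, 18.5 and 19.3 FPKM in LPS and 13.7, 10.9 and 7.07 FPKM in LPS + G-CDs. The 3 groups did not overlap, and the LPS + G-CDs libraries lay between the others. The mean was 6.75-fold higher with LPS than in control (log2 fold change 2.42 ± 0.24, SE, limma adjusted p = 9.7e-05). An antisense gene, Gm36328, overlaps Dusp16 and was at no more than 1.51 FPKM in any library.

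Dusp4 (chr8:34807297-34819894, plus strand), a nuclear phosphatase for ERK and JNK, was the most variable member in control on the log2 scale. It measured 17.7, 10.1 and 3.85 FPKM there, 49.1, 46.8 and 49.2 FPKM in LPS and 50.1, 39.3 and 23.3 FPKM in LPS + G-CDs. The treated libraries all lay above the highest control library, and in control and in LPS + G-CDs alike replicate 1 was the highest and replicate 3 the lowest. The mean rose 4.59-fold with LPS (log2 fold change 2.30 ± 0.45, SE, limma adjusted p = 0.0043).

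Dusp1 and Dusp6 had smaller log2 fold changes at this time point. Dusp1 (chr17:26505590-26508519, minus strand), a phosphatase that limits p38 and JNK in macrophages and is known as an early response gene, measured 2.17, 2.02 and 2.92 FPKM in control, 5.10, 5.26 and 3.8 FPKM in LPS and 4.28, 5.13 and 4.8 FPKM in LPS + G-CDs. Its mean was 1.99-fold higher with LPS (log2 fold change 0.76 ± 0.15, SE, limma adjusted p = 0.005), with no overlap between control and LPS. The reads behind them numbered 93 to 230 per library.

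Dusp6 (chr10:99263231-99267489, plus strand), the cytoplasmic phosphatase for ERK, measured 3.37, 3.84 and 3.01 FPKM in control, 5.59, 5.74 and 6.28 FPKM in LPS and 6.43, 6.96 and 4.0 FPKM in LPS + G-CDs. Both treated groups lay above control, with LPS + G-CDs replicate 3 close to the highest control library. Dusp6 rose 1.72-fold with LPS (log2 fold change 0.64 ± 0.18, SE, limma adjusted p = 0.024). Its call was lost in 7 of the 22 alternatives, with adjusted p = 0.054 without the filter on low values, 0.25 after rescaling to TPM and 0.056 to 0.084 without control replicate 1 or 3 or without any of the LPS replicates.

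Map3k8, also called TPL2 or Cot, is the MAP3 kinase that activates MEK and thereby ERK after LPS. Its levels were 1.62, 1.76 and 1.56 FPKM in control, 3.74, 3.89 and 4.40 FPKM in LPS and 3.96, 3.38 and 3.15 FPKM in LPS + G-CDs. Every treated library was above every control library, and the treated groups overlapped. The rise with LPS was 2.44-fold in the mean (log2 fold change 0.92 ± 0.12, SE, limma adjusted p = 0.00041).

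Spred1 and Spry2, the inhibitors of Ras and Raf, did not pass the test. Spred1 (chr2:117121374-117182279, plus strand) measured 67.7, 62.6 and 43.9 FPKM in control, 82.8, 89.1 and 86.6 FPKM in LPS and 86.9, 69.0 and 51.0 FPKM in LPS + G-CDs. The LPS libraries lay above control and the LPS + G-CDs libraries ran from the LPS level down into the control range. With LPS its log2 fold change was 0.58 ± 0.22 (SE, limma adjusted p = 0.074, and 0.035 with the replicate number as a block), and after TPM scaling it was 0.32.

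Spry2 (chr14:105891947-105896819, minus strand) measured 3.07, 3.71 and 3.52 FPKM in control, 3.40, 3.19 and 4.09 FPKM in LPS and 4.14, 4.53 and 3.38 FPKM in LPS + G-CDs. All groups overlapped. The log2 fold change with LPS was 0.04, with a 95% interval of -0.27 to 0.34 (limma adjusted p = 0.86), and its sign was negative (-0.20) after rescaling to TPM. These levels rest on 92 to 157 reads per library.

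The order of the levels per kilobase changed with LPS. In control cells Spred1 was the highest of the 10 at a mean of 58.1 FPKM and stood apart from Dusp4 at 10.5 FPKM, which overlapped Dusp2 at 8.92 FPKM. Gadd45b followed at 4.94 FPKM, and each of the 6 lower members, from Spry2 at 3.43 to Map3k8 at 1.65 FPKM, overlapped the next in the order. In LPS-treated cells Gadd45b (102.5 FPKM), Dusp2 (91.8), Spred1 (86.1) and Dusp5 (81.3) formed the top, with no gap between neighbors, followed by Dusp4 (48.4), Dusp16 (19.2) and Dusp6 (5.87), each apart from the next. Dusp1, Map3k8 and Spry2, at 4.72, 4.01 and 3.56 FPKM, overlapped their neighbors at the bottom. Dusp5 thus moved from rank 9 to rank 4. In LPS + G-CDs, Gadd45b (107 FPKM) and Dusp5 (106 FPKM) overlapped at the top, Dusp2 (77.5) and Spred1 (69.0) overlapped below them, and the places from Dusp4 downwards were those of LPS except that Spry2 and Map3k8 changed places without a gap.

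**Figure D2:**
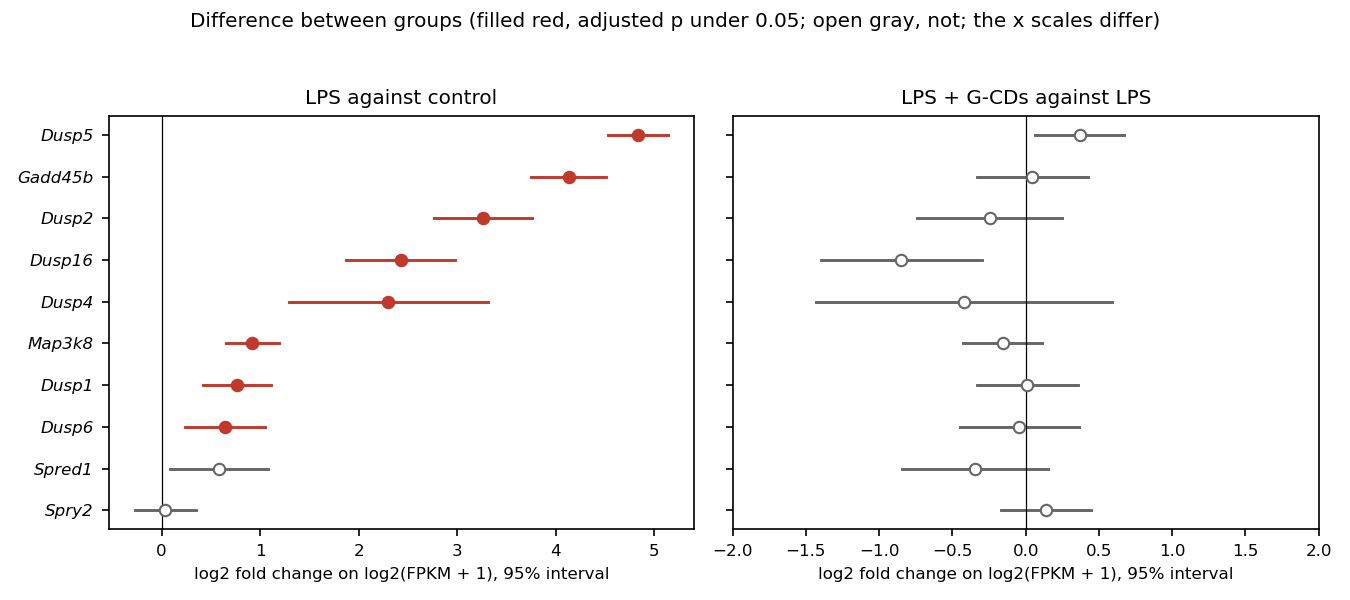
Log2 fold change of each gene on the log2(FPKM + 1) scale (x axis, with its 95% interval as a bar) for LPS against control (left) and LPS + G-CDs against LPS (right, on a wider-drawn scale). Filled red points passed an adjusted p of 0.05, open gray points did not; 8 genes are red on the left, from Dusp5 at 4.83 to Dusp6 at 0.64, and 0 on the right.

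The comparison of LPS + G-CDs with LPS asked whether the carbon dots changed these levels. After adjustment, 0 of the 10 members were called in either direction by limma, where 0.492% of the genes tested were called, and voom on the recovered reads also called 0. At an unadjusted p under 0.05 there were 2, Dusp16 and Dusp5, beside 15.2% of all genes. By the threshold of an unadjusted p under 0.01 and over 1.5-fold, 1 member, Dusp16, was called, beside 2.49% of all genes. The median log2 fold change of the members was -0.10, beside 0.02 for all genes tested. It was -0.16 without LPS + G-CDs replicate 2, -0.17 with the gene-length trend removed and -0.27 after TPM scaling, where all genes were at -0.14.

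Dusp16 was lower with G-CDs, without overlap, at a mean of 10.6 ± 3.31 FPKM against 19.2 ± 0.595 FPKM with LPS alone (SD, n = 3). Its log2 fold change was -0.85, with a 95% interval of -1.40 to -0.30 (limma adjusted p = 0.22). The adjusted p ranged from 0.054 to 0.58 over the alternatives. Without LPS + G-CDs replicate 1 the log2 fold change was -1.04 and without replicate 3 it was -0.61. Groups apart in this direction were found for 15% of all genes tested.

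Dusp5 was higher with G-CDs, also without overlap, at 106 ± 12.8 FPKM against 81.3 ± 3.84 FPKM (SD, n = 3). The log2 fold change was 0.37, with a 95% interval of 0.07 to 0.67 (limma adjusted p = 0.30, and 0.07 to 0.70 over the alternatives). With the gene-length trend removed the value was 0.20, as after TPM scaling, and after quantile scaling it was 0.22. Of all genes tested, 12.9% had groups apart in this direction.

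The other 8 members had LPS + G-CDs libraries that overlapped those of LPS. Their intervals bound the changes that these libraries allow. For Dusp1 the log2 fold change was 0.01 with a 95% interval of -0.33 to 0.36, for Dusp6 -0.04 (-0.45 to 0.36), for Gadd45b 0.05 (-0.33 to 0.43) and for Spry2 0.14 (-0.17 to 0.44). Map3k8 was at -0.16 (-0.42 to 0.11), Dusp2 at -0.24 (-0.74 to 0.25) and Spred1 at -0.35 (-0.85 to 0.15). The widest interval was that of Dusp4, at -0.42 (-1.43 to 0.59). Without LPS + G-CDs replicate 3, Dusp4 was at -0.12, Spred1 at -0.15 and Map3k8 at -0.10, and without replicate 1 Dusp4 was at -0.66, Spred1 at -0.53 and Dusp2 at -0.13. Without LPS replicate 3, Dusp2 was at -0.14 and Map3k8 at -0.10. With the gene-length trend removed Dusp2 was at -0.46 and Spred1 at -0.20, and after TPM scaling Dusp2 was at -0.41 and Map3k8 at -0.33. Limma adjusted p-values of these 8 lay between 0.38 and 0.97, and the sign turned in at least 1 alternative for Dusp1, Dusp6, Spry2 and Gadd45b.

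The spread among the LPS + G-CDs libraries and among the control libraries went partly with gene length. Across all genes tested, the longest 20% (median 9131 bases) lay 0.26 above the group mean on the log2 scale in replicate 1 and at -0.26 in replicate 3, and the shortest 20% (median 684 bases) lay at -0.26 and 0.30. Control libraries showed a trend too, with the longest genes at 0.11, 0.13 and -0.22 in replicates 1 to 3 and the shortest at -0.07, -0.07 and 0.17, while the LPS libraries stayed within -0.03 and 0.02 in the longest genes. Dusp16 (7798 bases) deviated by 0.39 in replicate 1 and -0.48 in replicate 3, and Spred1 (6784 bases) by 0.36 and -0.40. In control replicate 3 these genes deviated by -0.44 and -0.37. Gadd45b (1589 bases) deviated the other way, by -0.31 and 0.30, as did Dusp2 (2003 bases) with -0.22 and 0.18. Spry2 (2087 bases), of similar length to Dusp2, did not follow them, at 0.04 and -0.19, nor did Dusp6 (3132 bases), at 0.16 and -0.41. Dusp4 (2740 bases) showed the widest spread, with 0.47 and -0.60, and also went against the trend. The fifth of genes nearest to it in length (median 2351 bases) lay at -0.21 and 0.22. With the length trend removed from every library, the log2 fold change of Dusp16 against LPS was -0.66 (limma adjusted p = 0.11). The part of length in these differences was not tested further.

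**Figure D3:**
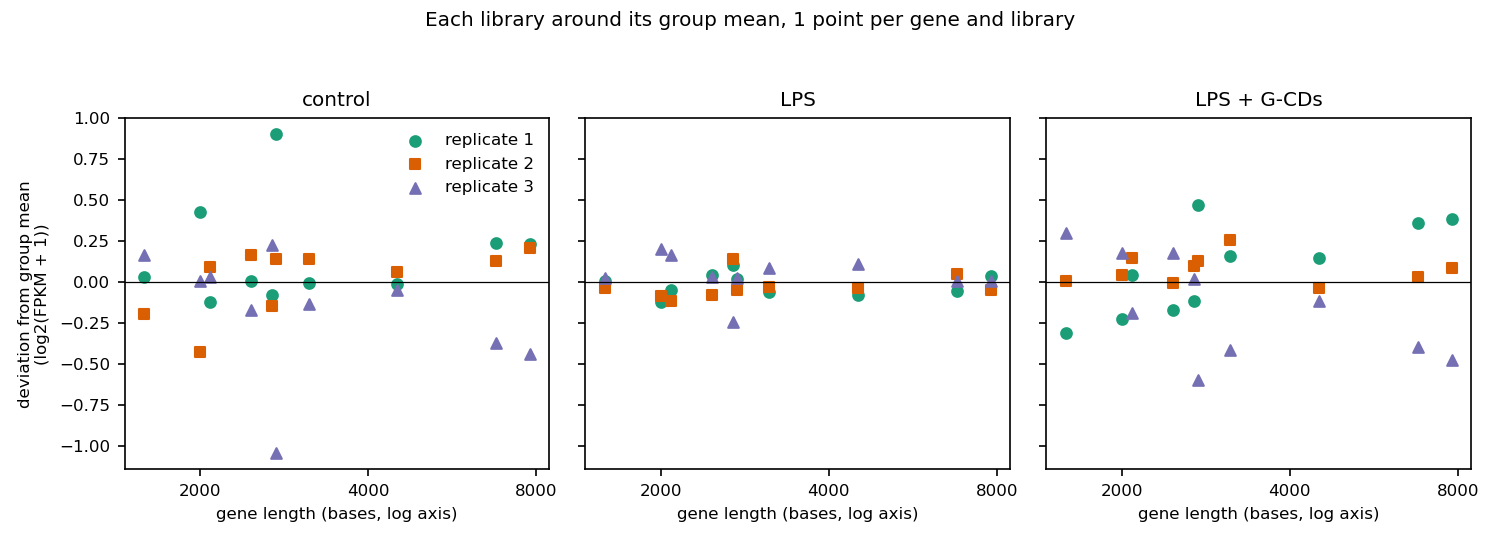
Deviation of each library from its group mean on the log2(FPKM + 1) scale (y axis) against gene length in bases (x axis, log scale), 1 point per member and library, in the 3 groups. In LPS + G-CDs, replicate 1 lies above and replicate 3 below the mean for Dusp16 and Spred1, the longest members, and the reverse holds for Gadd45b, the shortest; the LPS points lie between -0.243 and 0.205.

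Compared with untreated control, LPS + G-CDs cells had 8 members called higher and 0 lower, the same 8 genes as with LPS alone, where 12.8% of all genes tested were called higher. Both comparisons use the same control libraries. Dusp5 was 55.7-fold higher in the mean (log2 fold change 5.20), Gadd45b 21.7-fold (4.18), Dusp2 8.68-fold (3.02), Dusp16 3.71-fold (1.58) and Dusp4 3.57-fold (1.88). Map3k8, Dusp1 and Dusp6 had log2 fold changes of 0.76, 0.77 and 0.60. Dusp6 (limma adjusted p = 0.037) lost its call in 12 of the 22 alternatives, with adjusted p up to 0.50, among them leaving out any library except LPS + G-CDs replicate 3, and Dusp4 (adjusted p = 0.014) in 3, with 0.05009 to 0.064. Spred1 was at 0.24 (limma adjusted p = 0.48) and Spry2 at 0.17 (limma adjusted p = 0.40), and both were at -0.20 after rescaling to TPM. Over the alternatives Spred1 reached up to 0.43 and Spry2 up to 0.27. The rescaling to TPM left 4 members called, Dusp2, Dusp5, Dusp16 and Gadd45b, where 815 of 14074 genes were called higher.

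TPM scaling, which sets every library to a common sum, shifted the median of all genes to a log2 fold change of -0.22 for LPS against control and to -0.14 for LPS + G-CDs against LPS. Relative to that shifted median, the members kept values close to those above for LPS against control, from 5.18 for Dusp5 and 4.26 for Gadd45b to 0.71 for Dusp6, 0.55 for Spred1 and 0.02 for Spry2. For LPS + G-CDs against LPS they ran from -0.91 for Dusp16 to 0.34 for Dusp5.

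Across the 9 libraries, the tested genes most like a member on the log2(FPKM + 1) scale were listed by Pearson's r, as a description, since the 9 points fall into treated and untreated libraries and share their depth and length trends. Dusp5 was followed most closely by Rnf19b (r = 0.999), the chemokine gene Ccl5 (0.998) and the interferon-induced Mx2 (0.998). For Gadd45b these were Plaur, Traf1 and Irf7, the last with r = 0.999, and for Dusp2 they were Por, Hao1 and Bcl2l1 (0.997 to 0.996). Dusp16 was nearest to Jade2, Rab11fip1 and Dcbld2, and Map3k8 to the receptor gene Tlr6, Parp11 and Pml. Dusp1 went with Cadps, Magohb and Sh2d2a, Dusp6 with Kdelc1, Zfand2a and Ssr3, and Spred1 with Strn3, Pkn2 and Rock1. The genes nearest to Spry2, Dnajb12, Ofd1 and Gm4353, had r of no more than 0.881.

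The rest of the pathway was read from 115 further genes in 8 lists, of which 83 passed the filter on low values. With LPS, 22 of the 83 were called higher, 16 lower and 45 neither, a share of 45.8% called beside 31.3% of all genes tested. After rescaling to TPM, with 90 tested, the split was 13 higher and 25 lower. All genes shifted the same way there, with 1117 of 14074 called higher and 3268 lower. As single libraries were left out, 25 to 44 were called in all (25 without LPS replicate 3), beside 2478 to 4289 of all genes. With the replicate number as a block 42 were called, beside 4104 of all genes. The median log2 fold change was 0.15, beside 0.02 for all genes, and it was 0.08 without control replicate 3, 0.05 without the filter, 0.08 after quantile scaling and -0.13 after TPM scaling, where all genes were at -0.22.

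Close relatives of the members moved in both directions. Of the 11 other dual-specificity phosphatases tested, 1 was called higher and 5 lower with LPS, a share of 54.5% beside 31.3% of all genes. Dusp8, a phosphatase for JNK and p38, went from 0.0547, 0 and 0 FPKM in control to 1.78, 1.95 and 1.58 FPKM in LPS (log2 fold change 1.44, limma adjusted p = 3.1e-05), and it passed the filter only through the treated libraries. Dusp7, the close relative of Dusp6, fell from 8.12 ± 2.17 to 4.77 ± 0.575 FPKM (SD, n = 3). The log2 fold changes of the largest falls were -1.06 for Dusp14 and -0.95 for Dusp28, at 1.5 and 2.95 FPKM in control, and Dusp14 passed the filter only through control libraries. As single libraries were left out, 1 to 2 of the 11 were called higher and 3 to 5 lower, with 3 without control replicate 2 or any of the LPS replicates. Dusp19 and Dusp22 were also called lower, at -0.55 and -0.83. Dusp3 was not called, at -0.29 (limma adjusted p = 0.22). Dusp10, a phosphatase for p38 and JNK, was below the filter, at means of 0.477, 0.908 and 1.11 FPKM in control, LPS and LPS + G-CDs.

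Of the 4 other Sprouty, Spred and Gadd45 genes tested, Spred3 and Gadd45a were called higher with LPS, at log2 fold changes of 0.58 and 0.84 from low levels. The share called was 50%, beside 31.3% of all genes. Gadd45a passed the filter only through treated libraries, and Spred3 was at 1 FPKM or more in all 3 LPS libraries but in only 1 library of each other group. Neither was called without the filter, without control replicate 3, without LPS replicate 1 or 3 or without LPS + G-CDs replicate 2, and 1 gene of the list was called higher after TPM or quantile scaling. Gadd45g, the sister gene of Gadd45b, was at 8.77, 3.36 and 3.69 FPKM in control and at 1.85, 1.85 and 2.05 FPKM in LPS, a difference of -1.0 on the log2 scale (limma adjusted p = 0.097). With TPM scaling, with the 6 libraries of the comparison alone and without LPS + G-CDs replicate 1 or 3, 1 gene of the list was called lower, where 0 were otherwise. In LPS + G-CDs it measured 2.30, 4.93 and 8.98 FPKM, above LPS in every library, at 0.99 on the log2 scale (limma adjusted p = 0.32). Gadd45g is short, at 1173 bases, and was lowest in replicate 1 and highest in replicate 3 of that group. Spred2 was at 0.01 with LPS (limma adjusted p = 0.98).

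The kinases of the relays also moved in both directions, as did all genes tested, with 1827 of 11585 called higher and 1803 lower. Called with LPS were 25% of the MAP kinases tested, 50% of the MAP2 kinases and 42.1% of the list of other MAP3 kinases. Of all genes tested, 31.3% were called. Of 8 MAP kinases tested, Mapk14, which encodes p38α, fell from 42.1 ± 2.47 to 19.9 ± 0.965 FPKM (SD, n = 3, log2 fold change -1.04, limma adjusted p = 1e-04), Mapk9 (JNK2) fell with a log2 fold change of -0.34, and the other 6 were not called. Among 6 MAP2 kinases, Map2k1 (MEK1) and Map2k4 were called higher, at 0.86 and 0.57, and Map2k3, which activates p38, lower at -0.51. Of 19 other MAP3 kinases, Raf kinases and partners of TPL2 or TAK1, 4 rose and 4 fell. Nfkb1, whose p105 product holds TPL2 inactive in resting cells, rose from 15.2 ± 3.04 to 93.9 ± 2.43 FPKM (SD, n = 3, log2 fold change 2.57), followed by Map3k20 at 1.13, and the largest falls were those of Map3k5 (ASK1) at -0.86 and Tab1 at -0.71. After rescaling to TPM the MAP2 kinases had 0 called higher and 2 lower and this last list 2 and 8, where all genes had 1117 and 3268 of 14074. Leaving out single libraries gave 1 to 2 MAP kinases lower, with 1 lower without control replicate 2 or 3, any LPS replicate or LPS + G-CDs replicate 2, and up to 2 higher. For the MAP2 kinases it gave 1 to 2 higher and 0 to 1 lower, with 0 lower without any of the LPS replicates, and for the last list 3 to 4 higher and 2 to 4 lower, with 2 lower without LPS replicate 2 or 3.

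Downstream, 7 MAPK-activated kinases were tested, of which Mapkapk2, the p38 substrate known to stabilize cytokine transcripts, rose from 233 to 611 FPKM (log2 fold change 1.39, limma adjusted p = 0.00012), Mknk1 rose by 0.40 on the log2 scale and Mknk2 had a log2 fold change of -1.19. Of these 7 genes, 1 rather than 2 was called higher without the filter, after quantile scaling and on leaving out any control or LPS replicate or LPS + G-CDs replicate 2, and TPM scaling, with 8 tested, gave 1 higher and 3 lower. Of 16 Ras and adaptor genes upstream of ERK, 4 rose and 0 fell, led by Gab2 (1.85) and Sos2 (1.08). The share called was 25%, and 42.9% for the MAPK-activated kinases, beside 31.3% of all genes. TPM scaling gave 1 and 1 for the Ras and adaptor genes, where all genes had 1117 higher and 3268 lower of 14074. With the replicate number as a block 7 rose and 0 fell, and 3 to 7 rose as single libraries were left out, with 7 without LPS + G-CDs replicate 1 or 3. Among 12 genes that respond to ERK in transcription, 7 rose and 3 fell, a share of 83.3% called, as 7 and 3 of 13 did after TPM scaling. On leaving out single libraries 7 rose and 2 to 4 fell, with 2 falls without control replicate 1 or 2 or LPS replicate 2 or 3. Phlda1 went from 0.568 to 80.4 FPKM and Myc from 0.0773 to 34.4 FPKM, which are 5.72 and 5.04 on the log2(FPKM + 1) scale, while Etv5 and Kcnn4 had log2 fold changes of -1.04 and -0.79. Myc and Phlda1 passed the filter only through the treated libraries.

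**Figure D4:**
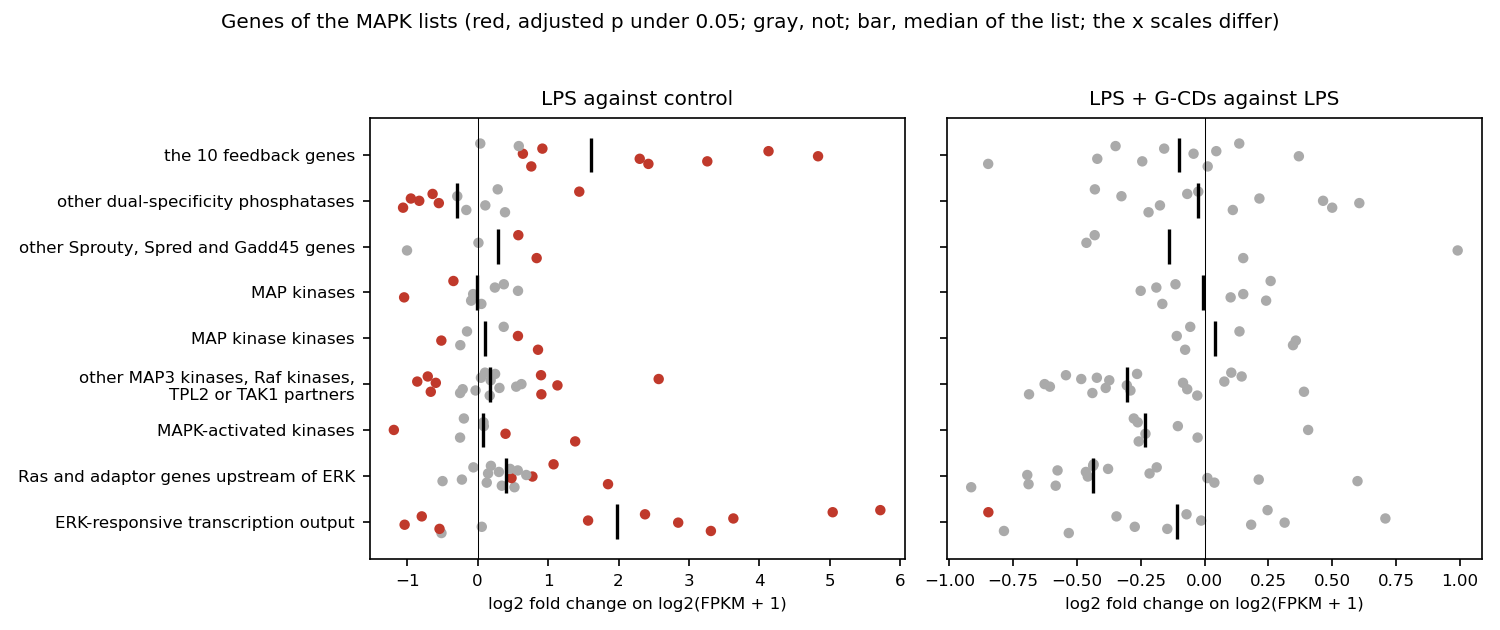
Log2 fold change on the log2(FPKM + 1) scale (x axis) of the 10 feedback genes and of the tested genes of the 8 MAPK lists (rows), for LPS against control (left) and LPS + G-CDs against LPS (right, narrower scale). Points are genes, red at an adjusted p under 0.05 and gray otherwise, and black bars are medians, at 1.61 on the left for the feedback genes and at 1.97 for the ERK-responsive genes, which after rescaling to TPM had medians of 1.52 and 1.32; on the right, Myc is the red point.

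Between LPS + G-CDs and LPS, 1 of the 83 listed genes was called, beside 0.492% of all genes. Myc, a transcription factor that drives growth and an early target of ERK, measured 34.1, 33.2 and 36.0 FPKM in LPS and 16.2, 19.3 and 20.9 FPKM in LPS + G-CDs. The groups did not overlap, and the difference was -0.85 ± 0.12 (SE) on the log2 scale (limma adjusted p = 0.023). Myc was not called with a pseudocount of 0.1, with the libraries of this comparison alone or with voom. The number called ranged from 0 to 5 as single libraries were left out. It was 5 without LPS + G-CDs replicate 1 and 0 without replicate 2, without any LPS replicate or without control replicate 2. The calls over all genes varied too, with 256 without LPS + G-CDs replicate 1 and 11 without replicate 2, in place of 57. They were 12 to 21 without an LPS replicate and 23 without control replicate 2. The median log2 fold change of the 83 genes was -0.17, beside 0.02 for all genes, -0.09 without LPS + G-CDs replicate 3, -0.10 with the gene-length trend removed and -0.28 after TPM scaling. By list, the lowest median was that of the Ras and adaptor genes at -0.44, with 0 of 16 called. It was -0.25 without LPS + G-CDs replicate 3 and -0.21 with the gene-length trend removed.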

How the data were processed

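RNA-seq was performed on 3 control, 3 LPS and 3 LPS + G-CDs libraries of RAW264.7 cells. The authors deposited FPKM values per gene and library with gene coordinates and lengths; the submitters' processing notes name the builds GRCm38 and mm10, and the aligner, the counting method and the test are not given in the sources used here. Every column of values belonged to a sample, and 0 belonged to none. FPKM multiplied by gene length gave whole reads to within 0.05 reads in 100.0% of values, which served for depth and for voom. The library size behind the FPKM was 1.108 to 1.14 times the reads on genes in control, 0.929 to 0.936 times in LPS and 0.88 to 0.98 times in LPS + G-CDs, so the values already hold a scaling between groups.

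The 11585 genes that reached 1 FPKM in 3 or more of the 9 libraries entered limma 3.58.1 in R 4.3.3 as log2(FPKM + 1) values (1 model of 3 groups, eBayes with trend, two-sided, Benjamini-Hochberg adjustment over all genes tested). All 10 members were above 1 FPKM in every library. The main fit used no count model because the deposited unit is FPKM, and voom on the recovered reads served as an alternative. The limma step was tested on simulated data first. Same-numbered control and LPS libraries deviated together (r of 0.103, 0.137 and 0.113, each above 0.1), so by this limit the numbers pair them; the labels do not say what a number stands for.

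The members and lists were chosen with earlier results of these data known. Named were the members, their closest relatives, in each list every gene called with G-CDs and the 2 largest rises and falls called with LPS, and the 3 genes most like each member (those of Dusp4 are not reported here); Dusp19 and Dusp22 were named after their values were seen. Promoter bases came from RefSeq GRCm38.p6, which gave an entry for 8 of 10 members. Gene positions equaled those of GENCODE mouse release 21 for 9 of the 10, the end of Dusp1 being the exception. Shared sequence was the share of 50-base words of the longest transcript found in other genes. Alternatives comprised a pseudocount of 0.1, leaving the filter out or raising it to 2 FPKM, TPM, median-of-ratios and quantile scaling, removal of the gene-length trend, fits of 6 libraries only, eBayes with no trend, voom, an unadjusted threshold (p under 0.01 and over 1.5-fold), the replicate number as a block and leaving out each library; the block together with length removal was added after seeing the data. Tables were made in Python 3.11.15 (pandas 2.3.3).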

Additional observations from a re-analysis of the deposited data

How the results depend on the processing

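Over 22 alternatives per result, the LPS rises of Dusp1, Dusp2, Dusp4, Dusp5, Dusp16, Map3k8 and Gadd45b kept their direction and their call. Dusp6 lost its call in 7 and Spred1 gained one in 6. Some alternatives alter only the test of LPS against control, so the direction could not turn in them. They are eBayes with no trend, the unadjusted threshold, the 6 libraries alone, the replicate block and leaving out an LPS + G-CDs library. The members called were 7 to 9 for LPS against control. For LPS + G-CDs against LPS they were 0, except 1 by the unadjusted threshold. For LPS + G-CDs against control they were 8, with 6 to 8 as single libraries were left out, 4 after TPM scaling, 6 with the 6 libraries of the comparison alone and 7 without the filter or with the length trend removed. Of the other listed genes, 38 were called with LPS, with 25 to 44 as single libraries were left out (25 without LPS replicate 3). With G-CDs 1 was called, 0 with a pseudocount of 0.1, with the 6 libraries of the comparison alone or with voom. It was 4 by the unadjusted threshold and 0 to 5 as single libraries were left out, where 11 to 256 of all genes were called. Signs turned only for values that were not called. TPM scaling gave log2 fold changes of -0.20 for Spry2 with LPS, -0.14 for Dusp1 and -0.12 for Gadd45b with G-CDs against LPS, and -0.20 for both Spry2 and Spred1 with G-CDs against control. Median-of-ratios scaling gave -0.0093 for Dusp1, and quantile scaling 0.0086 for Dusp6 and -0.10 for Gadd45b against LPS and -0.0042 for Spred1 against control. Removal of the length trend gave -0.13 for Dusp1, -0.067 for Spry2 and -0.19 for Gadd45b against LPS, also with the replicate block. With single libraries left out, Spry2 with LPS ranged from -0.044 to 0.10, and against LPS Dusp1 from -0.11 to 0.083, Dusp6 from -0.17 to 0.16 and Gadd45b from -0.11 to 0.20. The causes were not tested. Same-numbered LPS and LPS + G-CDs libraries correlated at 0.095, 0.08 and 0.143, which does not decide whether they are pairs. The replicate block called 53 in place of 57 of all genes there and 0 members. It changed no other call of a member than Spred1 with LPS.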
